A study of Mus musculus with 6 samples.

Results

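The 10 genes described here encode 8 subunits of the neuronal nicotinic acetylcholine receptors (Chrna3, Chrna4, Chrna5, Chrna6, Chrna7, Chrnb2, Chrnb3 and Chrnb4) and both cholinesterases (Ache and Bche). They were chosen by name as a gene family, with no threshold on their values, but with earlier results of these data known. All 10 have a row among the 26852 genes of the deposited table. RNA was sequenced from dissected midbrains of E14.5 mouse embryos on a C57Bl/6 background (C57BL/6J in the study's methods), as 3 libraries of Lmx1b fl/fl;Pitx3-Cre embryos (Lmx1b cKO) and 3 libraries of Lmx1b wt/wt;Pitx3-Cre embryos (control), each made from pooled embryos of different litters. All embryos, controls included, were heterozygous for Pitx3Cre, so the deletion is driven only where the Pitx3 locus is active, in the post-mitotic mesodiencephalic dopaminergic (mdDA) neurons, while the RNA comes from the whole dissected midbrain. The comparison asks how the removal of Lmx1b from these neurons changes the transcripts of the midbrain.

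The deposited values are the mean of each group, in reads scaled by a size factor for each library. The whole read counts behind these means were recovered for 26248 genes (97.8%), all 10 genes included, with between 19711032 and 23954501 recovered reads per library. Within a group, the libraries were given the letters a to c by falling size factor, because the means carry no sample numbers. Lmx1b (ENSMUSG00000038765) was at 1257, 1401 and 1455 normalized counts in cKO replicates a, b and c and at 1368, 1352 and 1474 in the control replicates. The groups overlap, so the level of the targeted gene in these libraries does not check the labels. The paper reported a loss of Lmx1b signal in the mdDA area of the cKO by in situ hybridization. By qPCR on dissected E14.5 midbrains of a Pitx3CreCre background, it reported severely reduced Lmx1b mRNA. That probe and that amplicon cover a part of the transcript, whereas the counts here are for the whole gene. The bone and mesenchyme markers stood apart in the cKO, with a summed level of 13461 normalized counts in replicate c and 1931 in replicate a, against 408 in replicate b and 426 to 501 in the controls. The fold changes were therefore also computed without each library in turn. In bulk RNA, fewer cells of a type and less RNA per cell cannot be told apart.

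Nicotinic receptors are ion channels of several subunits around a central pore, which open when acetylcholine binds. Chrna4 and Chrnb2 form the most common receptor of the brain, Chrna7 can form a receptor on its own, Chrna6 and Chrnb3 are enriched in dopaminergic neurons, and Chrna3, Chrna5 and Chrnb4, which lie side by side in the genome, form the main receptor of autonomic ganglia and the medial habenula. The cholinesterases end the signal: acetylcholinesterase (Ache) splits acetylcholine, and butyrylcholinesterase (Bche) splits acetylcholine and other choline esters. In the ventral midbrain, these receptors are known for letting acetylcholine, and nicotine, excite dopaminergic neurons.

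To compare levels between genes, normalized counts were divided by the length of all annotated exons in kb. On this scale, Chrna4 had the highest level, with 820.02 ± 67.1 normalized counts per kb (SD over all 6 libraries), followed by Chrnb2 with 571 ± 9.61. These 2 genes held 81.5% of the summed level of the 8 receptor subunits. Ache followed with 240.3 ± 27.4, Chrna3 with 121 ± 14.8, Chrna6 with 80.2 ± 17.4, Chrna7 with 52.5 ± 5.20 and Chrna5 with 42.2 ± 10.6 normalized counts per kb. The 3 lowest genes were Bche with 11.7 ± 3.93, Chrnb3 with 9.79 ± 1.21 and Chrnb4 with 9.56 ± 5.12 normalized counts per kb. The highest and the lowest level differed 85.8-fold, and the level of Ache was 20.6-fold that of Bche over all libraries, 28.7-fold in the cKO and 16.1-fold in the control. Bche was below Chrnb3 in the cKO (8.33 against 9.27 normalized counts per kb) and above it in the control (14.97 against 10.3), so their order differs between the groups.

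**Figure D1:**
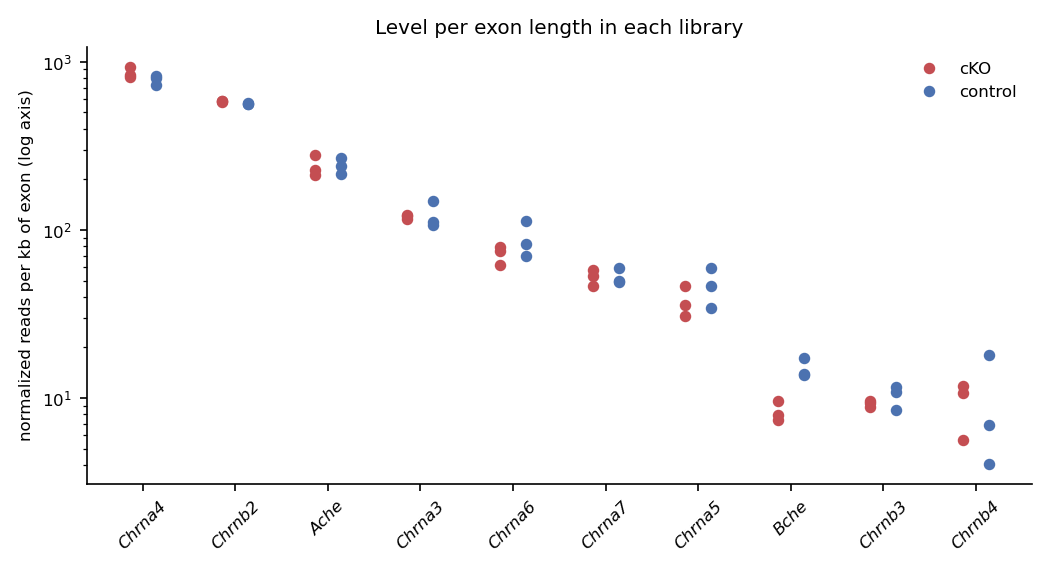
Normalized reads per kb of exon (log axis) for the 10 genes, ordered by their mean over all 6 libraries, with a point for each cKO library (red) and each control library (blue). Chrna4 and Chrnb2 lie above all other genes in every library, and the 2 colours overlap or nearly touch for each gene but Bche.

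Several neighbours in this order do not differ beyond their spread. The ranges over the 6 libraries overlap between Chrna3 and Chrna6, Chrna7 and Chrna5, Bche and Chrnb3, and Chrnb3 and Chrnb4, and Chrnb3 was above Chrnb4 in only 3 of 6 libraries. The other 5 pairs of neighbours have separate ranges. The order of Chrna4 and Chrnb2 depends on the length used, since on the coding sequence alone Chrnb2 was at 2193 and Chrna4 at 2142 normalized counts per kb. The gene models give lengths of 5022 bases of exon for Chrna4 and 8380 bases for Chrnb2.

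Among the 10 genes, only Bche showed a clear gap between cKO and control in every library, with the lower level in the cKO. Chrna4 was slightly higher in the cKO with overlapping groups, Chrnb2 differed by 2.97% with separate groups, and the other 7 genes had groups that overlapped. No difference passed correction for the number of genes tested. With limma-voom and Benjamini-Hochberg adjustment, 0 of 16573 genes with a mean of at least 10 normalized counts had an adjusted p-value under 0.05 (0.0%), and 466 of them an unadjusted p-value under 0.05. With limma-trend, these counts were 0 and 473. All 10 genes passed the filter on low values, and their adjusted p-values were 1.00.

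By unadjusted p-value under 0.05, 1 of the 10 genes (Bche) was lower in the cKO, against 1.62% of all genes tested, and 1 (Chrna4) was higher, against 1.19%. In 1 of 10 genes (Bche) the cKO libraries all lay below the controls, against 3.81% of all genes, and in 1 of 10 (Chrnb2) they all lay above, against 3.89%. The median log2 fold change of the 10 genes was -0.02, with 6 values below and 4 above 0, beside a median of -0.00 over all genes tested.

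**Figure D2:**
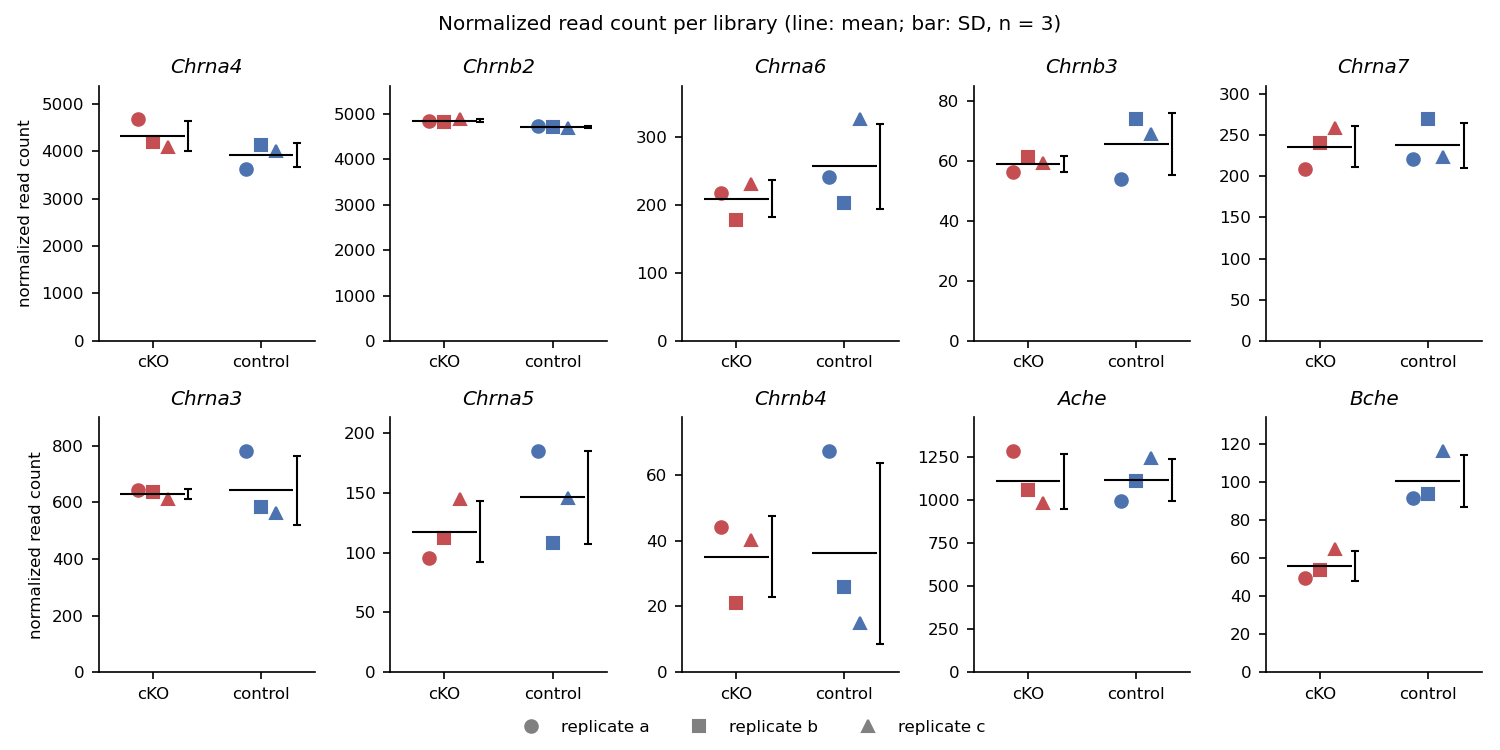
Normalized read count of each of the 10 genes in every library, with a symbol for each replicate, a line at the group mean and a bar for the SD (n = 3); each panel starts at 0 and has its own scale. Bche is at 49.7 to 64.9 in the cKO libraries and at 92.0 to 117 in the controls, and replicate a of the control is the highest library for Chrna3, Chrna5 and Chrnb4.

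Bche (ENSMUSG00000027792) lies on chromosome 3, chr3:73635808-73708415 on the minus strand (GRCm38), and no other annotated gene overlaps it. Its level was at 49.7, 53.9 and 64.9 normalized counts in cKO replicates a, b and c, against 92.0, 94.1 and 117 in control replicates a, b and c. All 3 cKO libraries were below all 3 controls, and the highest cKO library was at 0.706 of the lowest control. These values rest on few reads, with 53, 51 and 60 reads in the cKO libraries and 104, 98 and 108 reads in the controls. The mean was 56.2 ± 7.89 in the cKO against 101 ± 13.6 in the control (SD, n = 3), a difference of -44.4%. The log2 fold change was -0.84 (SE 0.24, 95% interval -1.35 to -0.32), which is 0.560-fold with an interval of 0.391 to 0.800. The limma-voom p-value was 0.00417 before and 1.00 after adjustment, and Bche stood at place 29 of the 16573 genes in the order of p-values. The exact permutation test of 3 against 3 libraries gave p = 0.1 (two-sided), the smallest value this design allows.

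The coefficient of variation of Bche was 14.1% in the cKO, where counting error alone at its mean of reads gives 13.5%, and 13.5% in the control, where it gives 9.84%. With each library left out in turn, the log2 fold change of Bche lay between -0.94 and -0.74 and its unadjusted p-value between 0.00540 and 0.0196. Of the libraries with high bone and mesenchyme markers, leaving out cKO replicate c gave a log2 fold change of -0.94 and leaving out cKO replicate a, which has the lowest Bche level, gave -0.75. In cKO replicate b, where these markers were at 408 normalized counts, Bche was at 53.9. The part of these cells in the Bche difference was not tested.

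Within each library, Bche was set against Ache on the scale of normalized counts per kb of exon. Bche made up 2.58%, 3.39% and 4.34% of the summed cholinesterase level in cKO replicates a, b and c, against 5.97%, 5.50% and 6.06% in the controls. The share was lower in all cKO libraries than in all controls (3.44% ± 0.880 against 5.84% ± 0.297, SD, n = 3; exact permutation test, two-sided, p = 0.1, and 0.35 after Benjamini-Hochberg adjustment over the 7 ratios tested).

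Some markers of other cell types were also lower in the cKO by unadjusted p-value. Among the radial glia markers, these were 2 of the 5 tested, against 1.62% of all genes tested (unadjusted p under 0.05). Slc1a3, the glutamate transporter of radial glia, was at 3972, 4093 and 4615 normalized counts in the cKO and 5171, 4404 and 5103 in the control (log2 fold change -0.21, with an unadjusted limma-voom p-value of 0.0132, adjusted p = 1.00). Hes5, a Notch target of neural progenitors, had a log2 fold change of -0.33 with an unadjusted p-value of 0.0317 (adjusted p = 1.00), and the 2 groups overlap for both genes. The other 3 markers tested (Sox2, Pax6 and Sox9) had log2 fold changes of 0.01, 0.24 and -0.12, so 2 of the 5 were above 0, with unadjusted p-values of 0.931, 0.144 and 0.233. Fabp7 and Vim were too abundant for the recovery of reads and were not tested, and their deposited means, given by the authors, were 12594 in the cKO against 13725 in the control for Fabp7 and 10031 against 11056 for Vim. The summed level of the measured radial glia list was 9865 to 11643 normalized counts in the cKO and 11064 to 11679 in the control. The ratio of Bche to Slc1a3 was 0.0132 ± 0.000787 in the cKO and 0.0207 ± 0.00260 in the control, with groups that do not overlap (exact permutation test p = 0.1, adjusted 0.35). The ratio of Bche to Hes5 was 0.0879 ± 0.0227 and 0.124 ± 0.0119, with groups that overlap (exact permutation test p = 0.2, adjusted 0.467).

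Among the serotonergic markers, 3 of 5 were lower in the cKO by unadjusted p-value under 0.05 (Slc6a4, Tph2 and Fev), against 1.62% of all genes tested. Gata2 and Gata3 had log2 fold changes of 0.04 and 0.00. The serotonin transporter Slc6a4 was at 82.4, 127 and 200.2 normalized counts in cKO replicates a, b and c and at 278, 245 and 392 in the controls (log2 fold change -1.23, with an unadjusted limma-voom p-value of 0.000809, adjusted p = 1.00). As for Bche, replicate a was the lowest and replicate c the highest library of the cKO, and replicate c was the highest control. Fev had the same lowest and highest cKO library and the same highest control, whereas Tph2 was lowest in cKO replicate b (61.3) and highest in control replicate a (202). The summed level of the 5 serotonergic markers was 3365 to 3886 in the cKO and 3413 to 4280.3 in the control. Of the erythroid markers, 8 of 9 tested had a log2 fold change above 0, with a median of 0.30. Over all genes tested, 8270 of 16573 were above 0, with a median of -0.00, and 1.19% were higher by unadjusted p-value under 0.05. The haemoglobin genes Hba-a1 and Hbb-bs were higher in the cKO with unadjusted limma-voom p-values of 0.0383 and 0.0318 (adjusted p = 1.00 for both). The part of these cell types in the Bche difference was not tested.

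Promoter sequence of 8 of the 10 genes was found in the RefSeq table for GRCm38.p6, and Chrna6 and Chrnb3 have no entry in it. The windows of 250 bases before the start site are shown for 3 genes, 5′ to 3′ on the strand of the gene, because they differ in base composition as well as in their values: Bche, which was lower in the cKO, Chrnb2, which had separate groups with a small difference, and Chrna3, of the gene cluster on chromosome 9. The windows are chr3:73708416-73708665 (minus strand) for Bche, chr3:89764633-89764882 (minus strand) for Chrnb2 and chr9:55026563-55026812 (minus strand) for Chrna3. Capitals mark the GC box GGGCGG or its reverse complement CCGCCC.
Bche: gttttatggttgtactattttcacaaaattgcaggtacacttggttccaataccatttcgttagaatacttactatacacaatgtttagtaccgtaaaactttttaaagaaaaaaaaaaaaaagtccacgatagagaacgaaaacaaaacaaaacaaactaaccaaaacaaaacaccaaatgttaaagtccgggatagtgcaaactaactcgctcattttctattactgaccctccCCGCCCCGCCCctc
Chrnb2: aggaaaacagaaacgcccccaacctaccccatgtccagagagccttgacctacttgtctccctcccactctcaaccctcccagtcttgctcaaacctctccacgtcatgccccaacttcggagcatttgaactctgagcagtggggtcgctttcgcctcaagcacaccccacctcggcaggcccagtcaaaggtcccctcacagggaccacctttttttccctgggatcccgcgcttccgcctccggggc
Chrna3: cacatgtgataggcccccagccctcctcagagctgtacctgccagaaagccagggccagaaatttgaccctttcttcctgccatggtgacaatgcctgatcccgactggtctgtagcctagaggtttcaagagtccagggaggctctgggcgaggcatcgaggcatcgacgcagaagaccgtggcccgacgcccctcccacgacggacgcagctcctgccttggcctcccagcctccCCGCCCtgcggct

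The Bche window is poor in G and C, at 35.6% against 59.6% for Chrnb2, 63.2% for Chrna3 and a median of 52.4% over all 32851 windows, and 5.81% of all windows have a G and C content at or below that of Bche. It holds 8 CG pairs and 2 GC boxes that share a base, just before the start. The letters GGGCGG, on either strand, are in 32.7% of all windows and in 6 of the 9 windows of these genes (Chrna5 has 2 start sites). The LIM homeodomain core TAATTA, the type of site that Lmx1b binds, is in 4.84% of all windows, the bicoid-type core TAATCC in 6.25% and the Nurr1 site AAAGGTCA in 1.34%, and 0 of the 9 windows hold any of these 3 on either strand. These are matches of letters in a short window and say nothing on binding.

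Ache (ENSMUSG00000023328; chr5:137287519-137294466, plus strand) did not show the difference seen for Bche. It was at 1284, 1055 and 982 normalized counts in cKO replicates a, b and c and at 994, 1109 and 1241 in the controls. The groups overlap fully, with the highest library in the cKO and the lowest there too. The mean was 1107 ± 158 in the cKO and 1115 ± 123 in the control (SD, n = 3), and the log2 fold change was 0.00 (SE 0.11), with an interval of 0.849-fold to 1.18-fold. The exons of Ache overlap those of the antisense gene Gm42456 by 98 bases, and use of the strand in the counting is not given in the sources used here; Gm42456 had 1 to 13 reads per library.

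**Figure D3:**
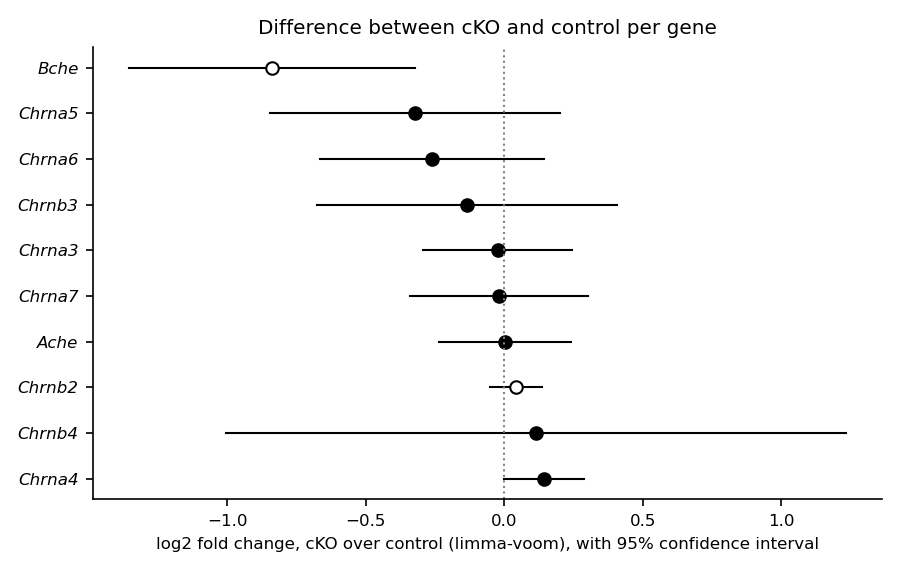
Log2 fold change of the 10 genes, cKO over control, with the 95% confidence interval from limma-voom; open points are genes whose cKO and control libraries do not overlap. The interval of Bche ends at -0.32, while those of Chrnb2 and 7 others include 0 and that of Chrna4 reaches down to 0.00.

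Chrna4 (ENSMUSG00000027577; chr2:181018380-181043546, minus strand) was at 4670.4, 4198 and 4084 normalized counts in cKO replicates a, b and c and at 3628, 4129.7 and 3999 in the controls. Only replicate a of each group stood out, high in the cKO and low in the control, and the other 4 libraries lie between 3999 and 4198. The mean was 4317 ± 311 in the cKO and 3919 ± 261 in the control, for a log2 fold change of 0.14 (SE 0.07, interval 0.00 to 0.29; unadjusted limma-voom p-value of 0.0491, adjusted p = 1.00). The exact permutation test gave p = 0.2. Without cKO replicate a the log2 fold change was 0.08 with an unadjusted p-value of 0.226, and without control replicate a it was 0.09 with an unadjusted p-value of 0.199.

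Chrnb2 (ENSMUSG00000027950; chr3:89746195-89764632, minus strand), the usual partner of Chrna4, was at 4853, 4822 and 4884 normalized counts in the cKO and at 4739.7, 4708 and 4692 in the controls. Every cKO library was above every control library, but the gap was small: the lowest cKO library was 1.02-fold the highest control. The log2 fold change was 0.04 (SE 0.04, interval -0.05 to 0.14; unadjusted limma-voom p-value of 0.350, adjusted p = 1.00; exact permutation test p = 0.1). The coefficient of variation of Chrnb2 was 0.630% in the cKO and 0.517% in the control, under the 1.45% and 1.43% that counting error alone would give. The exons of Chrnb2 overlap those of Adar, an RNA-editing enzyme on the other strand, over 1365 bases (16.3% of the Chrnb2 exons). Adar was at 5407 to 5812 normalized counts in the cKO and 5165 to 5647 in the control, with groups that overlap. The ratio of Chrna4 to Chrnb2 per kb was 1.48 ± 0.109 in the cKO against 1.39 ± 0.0980 in the control (exact permutation test p = 0.5, adjusted 0.583).

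Chrna6 (ENSMUSG00000031491; chr8:27403212-27413944, minus strand), the subunit that marks dopaminergic neurons, was at 218, 179 and 231 normalized counts in cKO replicates a, b and c and at 241, 204 and 326 in the controls. Control replicate c was the highest library, and the others overlap. The mean was 209 ± 27.2 in the cKO and 257 ± 62.8 in the control, for a log2 fold change of -0.26 (SE 0.19, interval -0.67 to 0.14; unadjusted limma-voom p-value of 0.186, adjusted p = 1.00). Without control replicate c the log2 fold change was -0.09 with an unadjusted p-value of 0.612, and without control replicate b it was -0.41 with an unadjusted p-value of 0.0490.

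Th, which encodes the rate-limiting enzyme of dopamine synthesis, was also highest in control replicate c, with 745, 733 and 778 normalized counts in the cKO and 776, 789.6 and 976 in the controls. Relative to Th, Chrna6 was at 0.278 ± 0.0296 in the cKO against 0.301 ± 0.0389 in the control (exact permutation test p = 0.4, adjusted 0.56). Of the 10 mdDA neuron markers, Ddc (log2 fold change -0.24) and Pitx3 (-0.41) were lower in the cKO and Aldh1a1 was higher (0.92), with unadjusted limma-voom p-values of 0.0354, 0.0408 and 0.000229 and adjusted p-values of 1.00. By unadjusted p-value under 0.05, 1.62% of all genes tested were lower and 1.19% higher. In all, 8 of the 10 markers had a log2 fold change below 0, with a median of -0.17, against 8303 of the 16573 genes tested. The groups do not overlap for Ddc, Pitx3 and Nr4a2, which were lower, and for Aldh1a1, which was higher. Among all genes tested, 3.81% lay below the controls and 3.89% above them without overlap. The summed level of the 10 mdDA neuron markers, Aldh1a1 included, was 10652 to 11037 normalized counts in the cKO and 10388 to 12290.04 in the control. The part of mdDA neuron number in the Chrna6 values was not tested.

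Over the 6 libraries, the genes whose log2(normalized count + 1) followed Chrna6 most closely were Ino80c (Pearson r = 0.983), Gch1 (r = 0.983) and Pum3 (r = 0.979), among 12340 genes with a mean of at least 100. Gch1 makes the cofactor that tyrosine hydroxylase needs, Ino80c belongs to a chromatin remodelling complex and Pum3 is an RNA-binding protein. With 6 libraries, 62 genes had an r above 0.9, so the likeness is a description only. For Ache, the closest were Mthfd2 (r = 0.988), an enzyme of mitochondrial folate metabolism, Gm5874 and 4921524J17Rik (both r = 0.986), and 128 genes had an r above 0.9.

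Chrnb3 (ENSMUSG00000031492; chr8:27368711-27399730, plus strand), the neighbour of Chrna6, was at 56.2, 61.3 and 59.5 normalized counts in the cKO and at 54.0, 74.0 and 69.1 in the controls. The cKO libraries lie inside the range of the controls. The log2 fold change was -0.13 (SE 0.25, interval -0.67 to 0.41), so a change of the size seen for Chrna6 could not be told from none at this depth of 55 to 77 reads per library.

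Chrna7 (ENSMUSG00000030525; chr7:63098692-63212569, minus strand) was at 209, 239.9 and 259 normalized counts in the cKO and at 220.3, 269 and 224 in the controls. The groups overlap and their means were 236 ± 25.1 and 238 ± 27.2, a log2 fold change of -0.02 (SE 0.15) with an interval of 0.791-fold to 1.23-fold.

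The 3 genes of the cluster on chromosome 9 shared a high library. Chrna3 (ENSMUSG00000032303; chr9:55010111-55026562, minus strand) was at 644, 637 and 610.4 normalized counts in the cKO and at 782, 584 and 562 in the controls. Control replicate a was the highest library, 1.28-fold the median of the other 5. Chrna5 (ENSMUSG00000035594; chr9:54980880-55007779, plus strand) was at 95.6, 112 and 145 in the cKO and at 185, 108 and 146 in the controls, again highest in control replicate a, at 1.65-fold the median of the others. Chrnb4 (ENSMUSG00000035200; chr9:55028154-55048779, minus strand) was at 44.0, 21.1 and 40.0 in the cKO and at 67.2, 25.9 and 15.1 in the controls, and control replicate a was at 2.59-fold the median of the others.

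The groups overlap for all 3 genes of the cluster. The log2 fold change was -0.02 (SE 0.12, interval -0.29 to 0.25) for Chrna3, -0.32 (SE 0.24, interval -0.84 to 0.20) for Chrna5 and 0.12 (SE 0.51, interval -1.003 to 1.23) for Chrnb4. Without control replicate a, these values were 0.14 for Chrna3, -0.11 for Chrna5 and 0.73 for Chrnb4. Without control replicate b, that of Chrna5 was -0.53 with an unadjusted p-value of 0.0397 (adjusted p = 1.00). Chrnb4 rests on 14 to 76 reads per library, and its interval spans from 0.499-fold to 2.35-fold. Its coefficient of variation was 76.2% in the control and 34.9% in the cKO, against 16% and 17% from counting error.

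Control replicate a was also high in the choline transporter Slc5a7, at 264 normalized counts, and in the myosin gene Myh8, at 91.1 (7.91-fold the median of the others). The summed level of the 11 muscle markers was 98.3 to 114 in the cKO and 76.8 to 196 in the control, with 196 in control replicate a. Myh3 was also highest in that library, at 38.9, whereas Acta1 was lowest there, at 30.1. The muscle-defining genes Myog, Myod1 and Ckm had at most 3 reads in any library, and Myf5 had 5 reads in cKO replicate a and 0 in the others. Of the habenula and interpeduncular markers, 0 of 7 tested had an unadjusted p-value under 0.05, against 1.62% lower and 1.19% higher among all genes tested. Their summed level was 6066 to 6902 in the cKO and 6626 to 6901 in the control, with 6626 in control replicate a, the lowest control. In this list the groups do not overlap for Irx2, which was lower in the cKO (log2 fold change -0.07), and for Gpr151, which was higher (0.71, with 14.99 to 30.6 normalized counts in the cKO and 11.5 to 12.4 in the control). Over all genes tested, the cKO libraries all lay below the controls in 3.81% and all above them in 3.89%. The part of muscle, habenula and interpeduncular cells in the high values of control replicate a was not tested.

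Within each library, the ratio of Chrna5 to Chrna3 per kb was 0.315 ± 0.0769 in the cKO and 0.382 ± 0.0650 in the control (SD, n = 3; exact permutation test p = 0.3, adjusted 0.525). The ratio of Chrnb4 to Chrna3 was 0.0788 ± 0.0277 and 0.0742 ± 0.0429 (exact permutation test p = 0.9, adjusted 0.9).

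**Figure D4:**
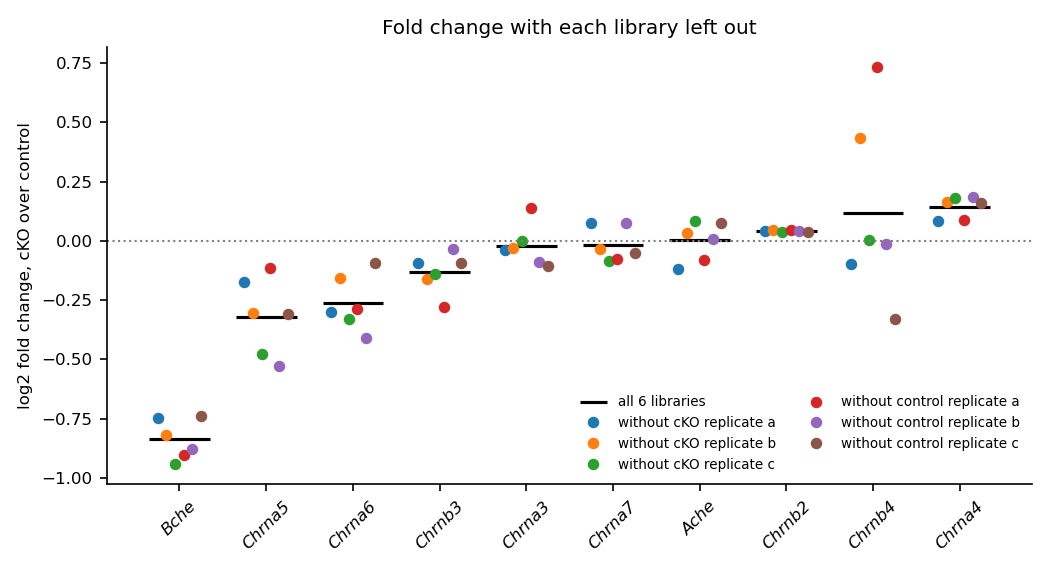
Log2 fold change, cKO over control, of each of the 10 genes with all 6 libraries (black line) and with each library left out in turn (coloured points). Bche stays between -0.94 and -0.74, whereas Chrnb4 ranges from -0.33 to 0.73 and turns its sign.

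The other genes of the cholinergic pathway were taken from 5 lists with 36 genes, of which 35 have a row and 23 were tested. Of these 23, 0 reached an unadjusted p-value under 0.05 in either direction, against 1.62% lower and 1.19% higher among all genes tested, and 0 had groups that do not overlap, against 3.81% below and 3.89% above among all genes. Their log2 fold changes had a median of -0.04, with 15 below and 8 above 0.

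Of the other nicotinic subunits, only the muscle-type Chrnb1 passed the filter, at 13.0 to 15.9 normalized counts in the cKO and 11.5 to 31.3 in the control. Chrna9, Chrna10, Chrnd and Chrne had at most 3 reads in any library, and Chrng has no row. Chrna2, which is known from the interpeduncular nucleus, was below the filter, with 7, 8 and 7 reads in cKO replicates a, b and c, against 1, 4 and 0 reads in the controls. Its groups do not overlap, and without a filter on low values its log2 fold change was 2.45 (SE 0.77, unadjusted limma-voom p-value of 0.00666, adjusted p = 0.977), and with a minimum mean of 1 it was 2.42 (SE 0.92, unadjusted limma-voom p-value of 0.0194, adjusted p = 1.00). Of the 5 muscarinic receptors, Chrm2 was at 400.5 to 570 in the cKO and 457 to 544 in the control, and Chrm3 at 522 to 751 and 564 to 679, and the groups overlap for both.

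Of the 8 genes of acetylcholine synthesis and transport, 7 were tested, and the groups overlap for all 7. Chat, the enzyme that makes acetylcholine, was at 20.6, 25.4 and 26.0 normalized counts in the cKO and at 23.9, 18.3 and 29.2 in the controls. Slc18a3, the vesicular acetylcholine transporter, was at 52.5, 31.7 and 58.4 in the cKO and at 38.0, 46.1 and 54.0 in the controls. Slc5a7, which takes choline up into the nerve ending, was at 176, 132 and 179 in the cKO and at 264, 156 and 187 in the controls, a log2 fold change of -0.30 (SE 0.22, unadjusted limma-voom p-value of 0.186, adjusted p = 1.00). Without control replicate a this value was -0.07, without cKO replicate b it was -0.17 and without control replicate b it was -0.48.

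Chaperones and Ly6 proteins, which help receptors assemble or tune them at the membrane, had groups that overlap for all 8 genes tested. The chaperones Ric3 and Tmem35a were at 1802 to 1988 and 3769 to 4033 normalized counts in all libraries, with log2 fold changes of 0.01 for both. Lypd6 was at 243, 151 and 145 in cKO replicates a, b and c and at 229, 257 and 216 in the controls, a log2 fold change of -0.40 (SE 0.19, unadjusted limma-voom p-value of 0.0615, adjusted p = 1.00). Only cKO replicate a lay within the range of the controls, and without it the unadjusted p-value was 0.00358 (adjusted p = 1.00). The log2 fold change of Lypd6 was -0.66 without that library, and -0.27 and -0.29 without cKO replicates c and b, with unadjusted p-values of 0.223 and 0.207. With sample quality weights and all 6 libraries, the log2 fold change of Lypd6 was -0.44 with an unadjusted p-value of 0.0360 (adjusted p = 1.00). Prima1, which anchors Ache in the membrane, was at 7.49 to 19.0 in the cKO and 18.3 to 31.9 in the control (log2 fold change -0.72, unadjusted limma-voom p-value of 0.161, adjusted p = 1.00), and Colq, the collagen tail of Ache at the neuromuscular junction, had at most 4 reads in any library.

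**Figure D5:**
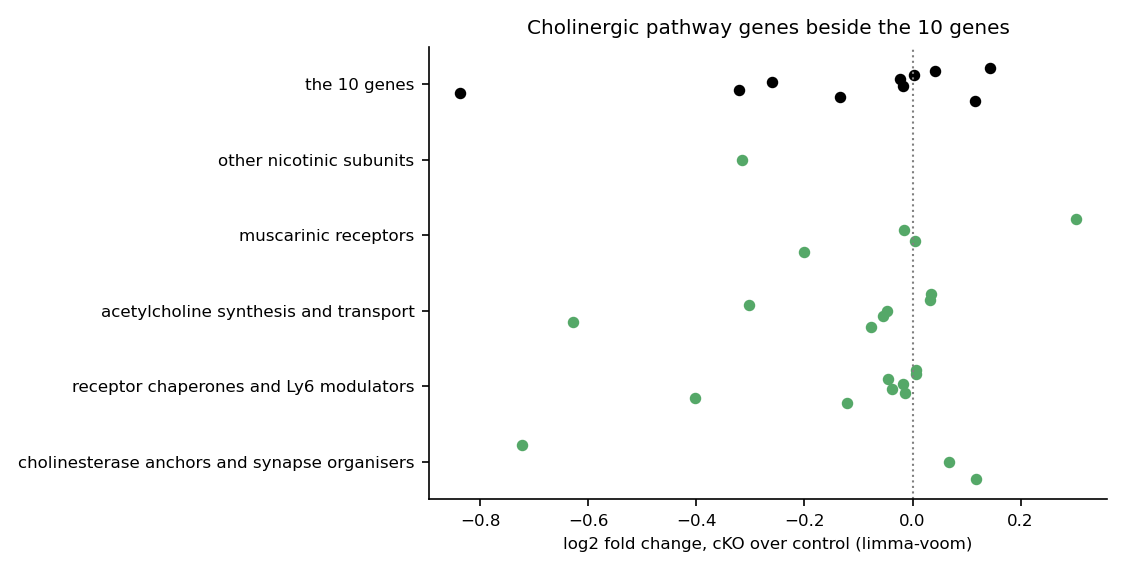
Log2 fold change, cKO over control (limma-voom), of the 10 genes (black) and of the 23 tested genes of the 5 cholinergic pathway lists (green), with a point for each gene. Bche, at -0.84, lies lowest of all points, followed by Prima1 at -0.72 and Slc44a3 at -0.63.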

How the data were processed

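Dissected E14.5 midbrains of 3 Lmx1b cKO and 3 control samples were sequenced. The processing notes of the submitters name TopHat 1.0.14, Bowtie2 2.1.0, HTSeq 0.6.1p1, DESeq 1.10.1 and GRCm38.p4, and the study's methods give paired-end reads mapped on Ensembl GRCm38.p4. The use of the strand in the counting is not given in the sources used here. The authors deposited a table of 26852 genes whose signal columns are means of read counts divided by a size factor per library, over all samples and over each group. It has 3 lines that name no gene, with 31.8% of the mean counts, which were left out. Its ratio, log2 ratio, p-value, adjusted p-value and rank columns are the authors' own comparison and were not used.

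The design foresaw recovering the counts. As each mean is a sum of 3 whole numbers over size factors, these were searched for sums of up to 30000 reads, and 26248 genes had a single answer. The other 604 genes were too abundant for this search or had no answer in it, and were not tested. The search gave 0 answers for 1000 decoy values. Recovered totals were 22915674, 20239515 and 19711032 reads in the cKO libraries (a to c) and 23954501, 22325583 and 19749537 reads in the control libraries. The test on these reads was that of limma 3.58.1 under R 4.3.3 (voom weights, recovered size factors, genotype as the only term, mean of at least 10 normalized counts, Benjamini-Hochberg adjustment over 16573 genes), and the script was tested on simulated data. Values of single genes and ratios were compared by exact two-sided permutation tests, which cannot go below 0.1 for 3 against 3 libraries. Intervals are 95% confidence intervals. The p-values measure the spread between pooled libraries.

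Exon lengths and positions came from GENCODE M21 on GRCm38 and promoter windows from RefSeq on GRCm38.p6. The 10 genes are named throughout, as are listed pathway genes with an unadjusted p-value under 0.05 or groups that do not overlap, Chat, Slc18a3, Slc5a7, marker genes that a result touches, and the 3 genes most like Chrna6 and Ache. Chrm2, Chrm3, Chrnb1, Ric3, Tmem35a, Lypd6, Prima1, Colq, Slc44a3, Slc1a3, Hes5, Slc6a4, Tph2, Fev, Fabp7, Vim, Hba-a1, Hbb-bs, Ddc, Nr4a2, Aldh1a1, Myh8, Myh3, Acta1, Irx2, Gpr151 and the genes at or near 0 were named after their values were seen. The genes and lists were chosen with earlier results of these data known. The search used numba 0.67.0, the permutation tests scipy 1.17.1 and the plots matplotlib 3.10.9, in Python 3.11.15. Alternatives were minimum means of 1 and 100 and none, recomputed size factors, upper-quartile scaling, limma-trend, sample quality weights, each library left out, an adjusted threshold of 0.1, other lengths and a pseudocount of 10.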

Additional observations from a re-analysis of the deposited data

How the results depend on the processing

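No paired analysis was possible because the means do not show which recovered library has which number, although the column names number the libraries of both groups alike. No gene of the 10 had an adjusted p-value under 0.05 under any alternative, and over all genes 0 did so under each but the one without control replicate a (range 0 to 3 with a library left out). Bche kept its direction and an unadjusted p-value under 0.05 in all 12 alternatives that tested it (log2 fold change -0.94 to -0.74; adjusted p 0.977 to 1.00). It is not tested at a minimum mean of 100, and its reads limit its precision. The number of the 10 genes with an unadjusted p-value under 0.05 was 2, but 0 with a minimum mean of 100, 1 with upper-quartile scaling, limma-trend or sample quality weights, and 1 to 4 with a library left out: 4 without control replicate b (Bche, Chrna4, Chrna5 and Chrna6) and 1 (Bche) without cKO replicate a or b or control replicate a or c. Over all genes that number was 466, but 302 with a minimum mean of 100, 968 with no minimum and 339 to 637 with a library left out. For the other pathway genes it was 0 to 1 with a library left out, Lypd6 without cKO replicate a and Slc5a7 without control replicate b. Lypd6 also had an unadjusted p-value under 0.05 with sample quality weights (0.0360).

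Of 127 recomputed fold changes of the 10 genes, 12 turned their sign, all in genes whose value was near 0 or poorly measured, and the cause was not tested. For Ache (0.0023) the value was -0.014 with limma-trend and -0.080 with sample quality weights, and -0.12 (without cKO replicate a) to 0.082 with a library left out. For Chrna3 (-0.02) it was 0.048 with sample quality weights, and -0.11 to 0.14 (without control replicate a) with a library left out. For Chrna7 (-0.02) it was 0.0095 with sample quality weights, and -0.085 to 0.076 (without control replicate b) with a library left out. For Chrnb4 (0.12) it was -0.33 (without control replicate c) to 0.73 (without control replicate a) with a library left out.

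The order of the genes by level per length was the same on the longest transcript but for Chrna7 and Chrna6, and Chrnb3 and Bche, which changed places. On the coding sequence Chrnb2 and Chrna4, and again Chrnb3 and Bche, changed places.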
